A study of Homo sapiens with 6 samples.

Results

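NF-kB is a family of dimeric transcription factors that is held in the cytoplasm by inhibitor proteins and moves to the nucleus once those inhibitors are destroyed. Described here are 10 genes of this system in HCT116 cells, a line established from a human colon carcinoma, and they fall into 4 roles. NFKB1, NFKB2, RELA and RELB code for subunits, NFKBIA and NFKBIE for the inhibitors IkB-alpha and IkB-epsilon, TNFAIP3 and BIRC3 for feedback regulators of the signal, and CXCL8 and CXCL1 for secreted chemokines that attract neutrophils. The genes were chosen by their symbols, with earlier results of these data known. All 10 were found, each on 1 row, among the 60675 gene IDs of the deposited table.

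The cells stably expressed either wild-type PHF5A (the WT group, 3 libraries) or PHF5A with a glutamine at the lysine of position 29 (the K29Q group, 3 libraries). PHF5A is a subunit of the SF3B splicing complex. The growth protocol in the labels gives DMEM medium with serum and antibiotics for the cells, and the labels name no cytokine and no further drug. They do not say whether a group was 1 clone or several, whether the cells kept their own PHF5A beside the introduced one, or whether the 3 libraries of a group were separate cultures, so a p-value here rests on the variation among these libraries alone, and that may be technical.

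Signals from receptors of the tumour necrosis factor, interleukin-1 and Toll-like families reach the IKK kinase complex, which marks IkB proteins for degradation and frees dimers such as p50 with RelA. In the non-canonical branch the kinase NIK, the product of MAP3K14, drives the processing of the NFKB2 precursor to p52, the partner of RelB. NFKBIA, NFKB2, TNFAIP3, BIRC3, CXCL8 and CXCL1 are textbook targets of the factor itself, so several of its regulators are also its readouts.

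Promoter sequences are shown for the inhibitor gene whose level differed most between the groups (NFKBIA), for a feedback gene (TNFAIP3) and for both chemokines, because textbooks list all of them as targets of the same factor. The windows are from RefSeq (GRCh38.p14), run 5′ to 3′ on the strand of the gene and reach from 250 bases before to 50 bases after an annotated start. Capitals mark matches to the kB consensus, a motif of 10 bases searched on both strands by its usual degenerate letters, with overlapping matches on opposite strands merged. NFKBIA lies at chr14:35404700-35404999 (minus strand), TNFAIP3 at chr6:137867009-137867308 (plus strand), CXCL1 at chr4:73869143-73869442 (plus strand) and CXCL8 at chr4:73740319-73740618 (plus strand).
NFKBIA: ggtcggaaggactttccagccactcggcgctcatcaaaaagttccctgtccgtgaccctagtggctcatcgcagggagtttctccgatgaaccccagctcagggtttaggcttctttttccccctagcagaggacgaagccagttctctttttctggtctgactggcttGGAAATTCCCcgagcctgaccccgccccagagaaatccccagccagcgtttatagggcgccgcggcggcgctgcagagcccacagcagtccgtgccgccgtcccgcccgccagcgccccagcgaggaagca
TNFAIP3: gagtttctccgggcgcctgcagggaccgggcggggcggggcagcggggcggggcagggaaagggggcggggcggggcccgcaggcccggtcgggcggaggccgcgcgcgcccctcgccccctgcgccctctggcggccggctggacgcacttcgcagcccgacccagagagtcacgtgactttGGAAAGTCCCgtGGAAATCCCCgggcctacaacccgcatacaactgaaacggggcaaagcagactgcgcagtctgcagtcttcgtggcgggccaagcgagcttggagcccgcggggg
CXCL1: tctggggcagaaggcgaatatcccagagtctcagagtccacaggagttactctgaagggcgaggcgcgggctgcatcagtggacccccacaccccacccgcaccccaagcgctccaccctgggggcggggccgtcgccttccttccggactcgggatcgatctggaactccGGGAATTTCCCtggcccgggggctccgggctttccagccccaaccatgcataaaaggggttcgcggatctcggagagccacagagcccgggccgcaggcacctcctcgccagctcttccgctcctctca
CXCL8: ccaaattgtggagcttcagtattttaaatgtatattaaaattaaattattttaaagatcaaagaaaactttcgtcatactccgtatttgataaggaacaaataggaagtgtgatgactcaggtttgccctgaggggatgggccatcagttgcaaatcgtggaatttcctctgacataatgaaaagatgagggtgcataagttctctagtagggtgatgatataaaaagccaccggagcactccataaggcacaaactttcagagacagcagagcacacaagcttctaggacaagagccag

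Of 35116 promoter windows of this length, 3956 (11.3%) held a match. Among the members, 8 had at least 1 window in the table, NFKBIE and RELB had none, and 6 of the 8 held a match in at least 1 window. Counted by window, as in the share above, 7 of 12 member windows held a match. Several members are textbook targets of the factor, so these counts are a description and not a test. Read on its own strand, the match of NFKBIA, 81 bases upstream of the start, had the letters GGGAATTTCC. The first start of NFKB1 (49 bases upstream) and the promoter of CXCL1 (79 bases upstream) held the same 10 letters. TNFAIP3 held a match 67 and another 55 bases upstream, GGGACTTTCC and GGGGATTTCC, and BIRC3 held 1 match 199 and 1 match 135 bases upstream. NFKB2 had 3 annotated starts, of which 2 held matches. The windows of RELA and CXCL8 held no match, which says only that these letters are not in those windows. A match is a description of the sequence and not a measured binding site.

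The members were expressed over a wide range. FPKM relates a gene's fragment number to the length of its transcripts and the size of the library, so levels can be set side by side between genes. Over all 6 libraries the mean FPKM was 35.7 for NFKB2, 10.5 for RELA, 8.42 for NFKBIA, 5.04 for NFKB1, 4.18 for NFKBIE and 3.53 for RELB. Below these came CXCL1 with 1.03, TNFAIP3 with 0.783, CXCL8 with 0.697 and BIRC3 with 0.629. Among the 13261 genes that reached an FPKM of 1 in 3 or more libraries, NFKB2 lay above the mean level of 92.7%. CXCL8 did not reach this limit, so a mean below nearly all of those genes followed from the limit itself. The ranges over the 6 libraries of NFKB2 and RELA did not overlap, nor did those of NFKBIA and NFKB1, or of RELB and CXCL1. The ranges of the other neighbours in this order overlapped, and the 4 lowest genes could not be put in a firm order. CXCL8, for example, was above BIRC3 in 3 of the 6 libraries.

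**Figure D1:**
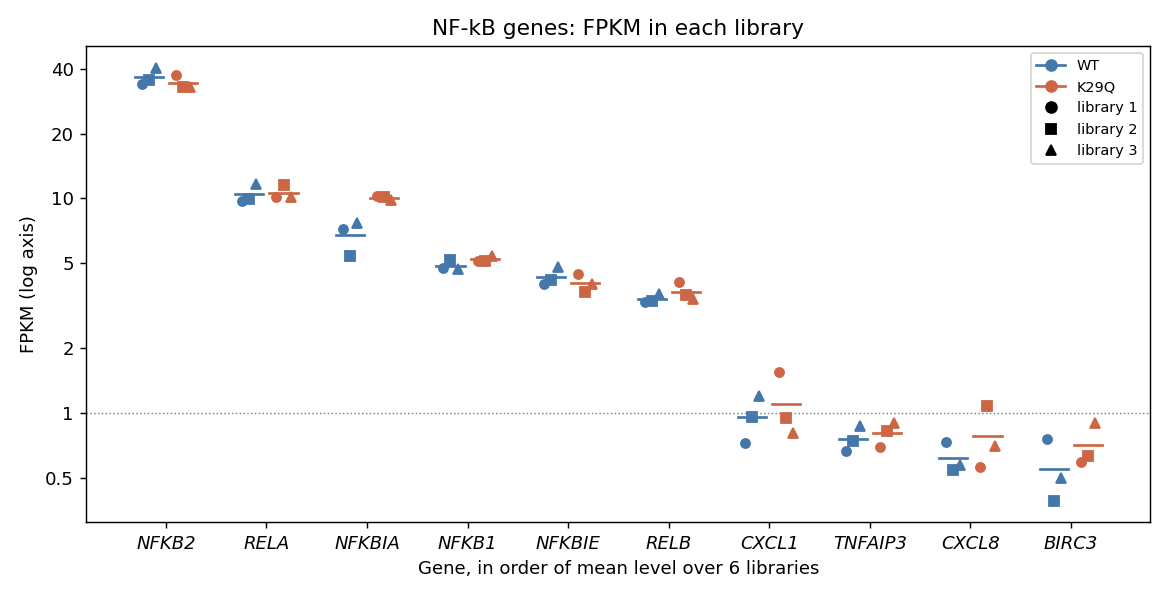
FPKM of each member (log axis) in the 3 WT (blue) and 3 K29Q (red) libraries, with a short line at the mean of each group, a symbol for each library number and a dotted line at an FPKM of 1. NFKB2 is the highest gene in every library, 4 members lie near or below 1, and NFKBIA, with 5.40 to 7.70 in WT and 9.88 to 10.2 in K29Q, is the member whose groups stand apart.

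Of the 10 members, 6 reached an FPKM of 1 in 3 or more libraries and entered the test (NFKBIA, NFKBIE, NFKB1, NFKB2, RELA and RELB). The other 4 (TNFAIP3, BIRC3, CXCL8 and CXCL1) fell below this filter. The test was limma on log2(FPKM + 1) values over 13261 genes, and adjusted p is the Benjamini-Hochberg value over all of them, with a threshold of 0.05. No tested member passed, in a comparison that called 7 genes (0.0528%). At an unadjusted p under 0.05 stood 1 of 6 members, NFKBIA, where 12.5% of all tested genes stood. The groups did not overlap for the same 1 of 6 members, where 17.8% of all tested genes did not overlap. With 6 genes these shares do not set the members apart from the rest of the transcriptome. The median log2 fold change of the 6 tested members was 0.05, beside 0.003 over all genes tested. The members' median was 0.02 without WT 1, 0.03 without K29Q 2, 0.08 without WT 3 and 0.09 with a correction for GC content and length. Each of these shifts was smaller than the SD of the member median among libraries of the same group (0.0715).

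NFKBIA, the IkB-alpha gene, had the largest difference among the members. Its FPKM was 7.18, 5.40 and 7.70 in WT libraries 1 to 3 and 10.2, 10.1 and 9.88 in K29Q libraries 1 to 3. Every K29Q library lay above every WT library, and the K29Q values were close together while WT 2 lay below the other WT libraries. The group means were 6.76 ± 1.21 and 10.1 ± 0.187 FPKM (SD, n = 3 each), a ratio of 1.49. On the log2 scale the fold change was 0.53 with an SE of 0.116 and a 95% confidence interval from 0.25 to 0.80. By limma this was short of the threshold (adjusted p = 0.235, unadjusted p = 0.00266). NFKBIA ranked 150 of the 13261 genes by p, and 1.41% of them had a larger fold change in either direction. The exact two-sided permutation p for 3 against 3 libraries was 0.1, the smallest this design allows.

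The difference in NFKBIA had the same sign in both sequencing runs. A run name in the column headers was taken as the flow cell: A held WT 2 with K29Q 1 and 2, and B held WT 1 and WT 3 with K29Q 3. The log2 difference was 0.80 within A, where the only WT library was the low one, and 0.37 within B. With the flow cell as a term in the limma fit the log2 fold change was 0.59 (adjusted p = 0.271). Whether the difference itself varied between the flow cells was not tested. Without WT 2 the log2 fold change was 0.39 (limma, adjusted p = 0.272), and over the 14 alternative settings it lay between 0.39 and 0.62 and never passed (adjusted p from 0.0949 to 0.532). The gene (ENSG00000100906) spans 35401511 to 35404749 on the minus strand of chromosome 14 in GENCODE 29 (GRCh38), and no other gene model there overlaps it.

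NFKBIE, the gene of the related inhibitor IkB-epsilon, showed no such separation of the groups. Its FPKM was 3.97, 4.19 and 4.81 in WT 1 to 3 and 4.46, 3.64 and 4.001 in K29Q 1 to 3. The groups overlapped, with the highest value in WT 3 and the lowest in K29Q 2. The means were 4.33 ± 0.437 and 4.04 ± 0.410 FPKM (SD, n = 3 each), and the log2 fold change was −0.08 (SE 0.091, limma with a 95% interval of −0.30 to 0.14, adjusted p = 0.723). The interval ends below the lower bound for NFKBIA, although the difference between both genes was not tested in that fit.

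Because subunits and inhibitors act together, NFKBIA was also set against its partners within each library, a comparison chosen after the values were seen. A ratio within a library does not depend on how libraries are scaled. There were 0.740, 0.544 and 0.660 NFKBIA FPKM per RELA FPKM in WT 1 to 3 and 1.01, 0.876 and 0.969 in K29Q 1 to 3. NFKBIA thus lay below RELA in all WT libraries and near it in the K29Q libraries, and the groups did not overlap. The mean ratio was 0.648 ± 0.0989 in WT and 0.952 ± 0.0687 for the K29Q libraries (SD, n = 3 each, exact permutation p = 0.1, the smallest possible).

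The same ratio was formed against every other subunit gene and the genes of the other IkB proteins in the lists, 10 ratios in all. In 8 of them every K29Q library exceeded every WT library (exact permutation p = 0.1 for each, 0.125 after Benjamini-Hochberg adjustment over the 10), and in 2 the groups overlapped. NFKBIA relative to NFKB1 was 1.40 ± 0.315 in WT and 1.94 ± 0.0910 in K29Q, and relative to NFKB2 it was 0.184 ± 0.0300 and 0.292 ± 0.0184 (SD, n = 3 each). Relative to NFKBIE it was 1.57 ± 0.260 and 2.52 ± 0.245, and relative to NFKBIB, the gene of IkB-beta, 0.441 ± 0.0901 and 0.764 ± 0.0121. RELB gave 1.99 ± 0.316 and 2.76 ± 0.217. For the genes of the atypical IkB proteins, NFKBID gave 3.85 ± 0.398 and 5.78 ± 0.320, and NFKBIZ 8.32 ± 2.26 and 15.9 ± 0.816. The overlapping ratios were those to REL, at 10.1 ± 1.41 in WT and 10.7 ± 1.19 in K29Q (exact permutation p = 0.6), and to BCL3, at 1.41 ± 0.237 and 1.70 ± 0.137 (exact permutation p = 0.2). The ratios share NFKBIA as numerator and are not independent of each other. NFKBIA alone already separated the groups, so these ratios largely restate its own difference. Some denominators differed as well. The ratio to NFKBIZ rose by more than NFKBIA did, since NFKBIZ itself was lower in K29Q. REL was higher in K29Q, and its ratio hardly changed. Both NFKBIZ and REL lay below the filter. They are not separate support for a changed balance, and ratios to arbitrary genes were not formed for comparison.

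**Figure D2:**
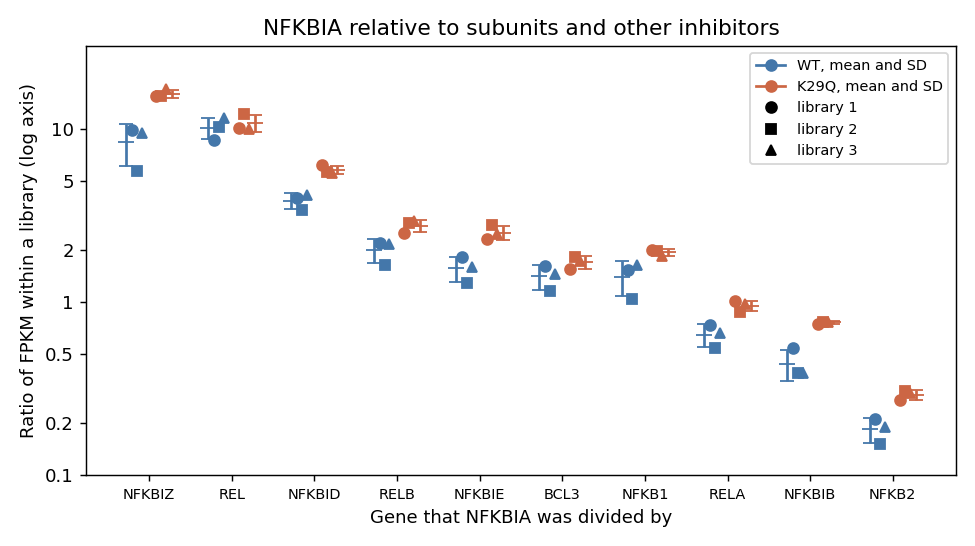
FPKM of NFKBIA divided by that of each other subunit or IkB gene in the same library (log axis), for WT (blue) and K29Q (red), with the mean and SD of 3 libraries beside the points. In 8 of the 10 ratios the 3 K29Q points lie above the 3 WT points, as with RELA (0.544 to 0.740 against 0.876 to 1.01), and with REL and BCL3 they overlap.

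The groups overlapped for each of the 4 subunits. RELA, the gene of the p65 subunit that carries a strong activation domain, had 9.70, 9.94 and 11.7 FPKM in WT 1 to 3 and 10.1, 11.6 and 10.2 in K29Q 1 to 3. The groups overlapped almost fully, and WT 3 was the highest library. A long non-coding model on the opposite strand, AP001362.2, overlaps RELA in GENCODE 29 only at the edge. It starts at 65663086 on chromosome 11, where RELA ends at 65663094, and it has no values in the deposited table. By these models reads of both could mix only at that edge. The log2 fold change of RELA was 0.03 (SE 0.090, limma with a 95% interval of −0.19 to 0.24, adjusted p = 0.921). Its sign turned when WT 1 (−0.02), WT 2 (−0.003) or K29Q 2 (−0.03) was left out.

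NFKB1 codes for the precursor p105, which is also an inhibitor, and its product p50. It had 4.72, 5.18 and 4.70 FPKM in WT 1 to 3 and 5.12, 5.12 and 5.39 in K29Q 1 to 3. WT 2 lay among the K29Q libraries, and the other 2 WT libraries lay below them. The log2 fold change was 0.08 (SE 0.064, limma with a 95% interval of −0.07 to 0.23, adjusted p = 0.605). Flow cell A gave −0.01 and flow cell B 0.16.

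NFKB2, the gene of p100 and p52 and the most abundant member, had 34.0, 35.5 and 40.7 FPKM in WT 1 to 3. The K29Q libraries had 37.7, 33.1 and 33.1 FPKM, inside or just below the WT range. The log2 fold change was −0.08 (SE 0.090, limma with a 95% interval of −0.29 to 0.13, adjusted p = 0.719).

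RELB, the partner of p52, had 3.27, 3.32 and 3.57 FPKM in WT 1 to 3 and 4.08, 3.55 and 3.39 in K29Q 1 to 3, so that K29Q 1 alone lay above the WT range. The log2 fold change was 0.09 (SE 0.078, limma with a 95% interval of −0.10 to 0.27, adjusted p = 0.649). After correction of each library for GC content and transcript length the RELB groups differed at an unadjusted p under 0.05, but over all genes the adjusted p was 0.294 at a log2 fold change of 0.15. A p above the threshold does not show equal levels, and the 4 intervals of the subunits allow log2 changes of up to 0.29 in size.

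**Figure D3:**
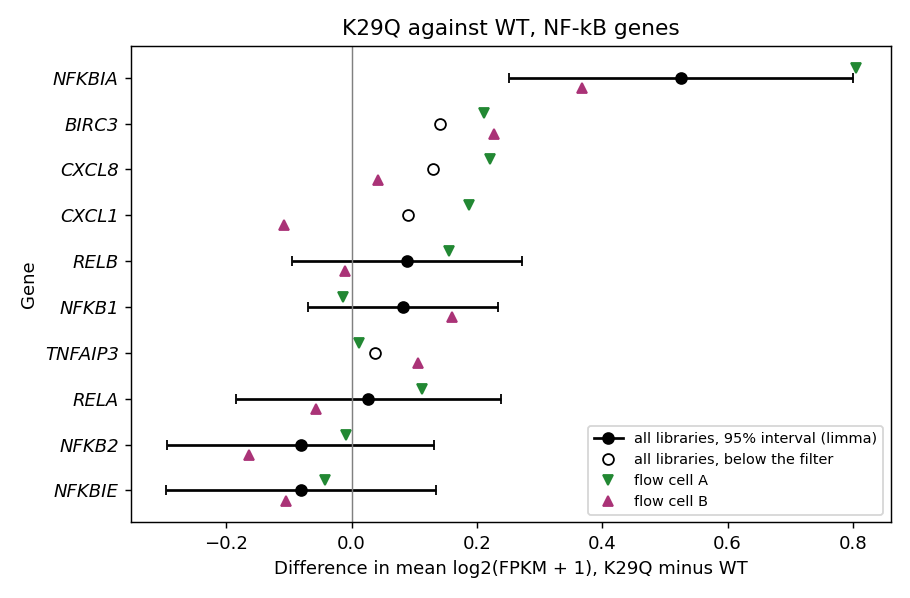
Difference in mean log2(FPKM + 1), K29Q minus WT, for each member. Filled points with bars are limma estimates with 95% confidence intervals, open points are the 4 members below the filter, and triangles are the differences within flow cell A (down) and B (up). The interval of NFKBIA, 0.25 to 0.80, lies above 0, and those of the other 5 tested members include 0.

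Both feedback genes were expressed at a low level in both groups. TNFAIP3 codes for A20, an ubiquitin-editing enzyme that shuts the pathway off, and had 0.665, 0.744 and 0.872 FPKM in WT 1 to 3 and 0.695, 0.823 and 0.9002 in K29Q 1 to 3. The groups were interleaved, with a ratio of means of 1.06 and an exact permutation p of 0.7. The antisense gene model AL357060.1 overlaps the start of TNFAIP3 on the opposite strand and had 0.00675 to 0.0645 FPKM. It ends at 137868233 on chromosome 6, where TNFAIP3 runs from 137867188 to 137883312. Because no strand setting is given, reads of both cannot be told apart in that shared stretch. BIRC3 codes for the ubiquitin ligase cIAP2 and had 0.760, 0.391 and 0.4997 FPKM in WT 1 to 3 and 0.589, 0.631 and 0.903 in K29Q 1 to 3. WT 1 lay above 2 of the K29Q libraries, so the groups overlapped (ratio 1.29, exact permutation p = 0.4).

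The chemokines were also low, and the difference in each was sensitive to single libraries. CXCL8, which codes for interleukin-8, had 0.732, 0.543 and 0.573 FPKM in WT 1 to 3 and 0.560, 1.08 and 0.701 in K29Q 1 to 3. K29Q 2 was the high library, and the other K29Q values lay inside the WT range (ratio of means 1.26, exact permutation p = 0.6). Without K29Q 2 the log2 difference fell to 0.01, from 0.13 with all libraries. CXCL1 codes for GRO-alpha and had 0.726, 0.955 and 1.21 FPKM in WT 1 to 3 and 1.55, 0.945 and 0.811 in K29Q 1 to 3. Here K29Q 1 was the high library (ratio 1.14, exact permutation p = 0.7), and the log2 difference was −0.06 without it and 0.001 without WT 1, against 0.09 with all libraries. The high library was thus not the same for both chemokines.

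Few fragments stood behind these 4 genes. The steps in the values of single-exon genes gave an estimate of 33800000 to 40050000 fragments per library. If each gene's fragments came from its longest annotated transcript, an assumption that was not tested, 29 to 61 fragments per library stood behind CXCL1 and 34 to 73 behind CXCL8. Those numbers carry counting errors of 12.8% to 18.6% and of 11.7% to 17.1%. TNFAIP3 had 114 to 156 and BIRC3 77 to 159 such fragments, NFKBIA 318 to 632 and NFKB2 3819 to 5032. For NFKBIA the counting error was 3.98% to 5.61%, larger than the coefficient of variation of its K29Q libraries (1.85%). The closeness of those K29Q values may therefore overstate their precision. When the filter was dropped and 41186 genes were tested, the 4 low members had adjusted p of 0.911 (TNFAIP3), 0.787 (BIRC3), 0.788 (CXCL8) and 0.881 (CXCL1) by limma. The spread between libraries exceeded the counting error for BIRC3, with a coefficient of variation of 34.5% in WT and 24.0% in K29Q beside counting errors of 7.94% to 11.4%. It was also larger for CXCL1 in WT (24.96%) and K29Q (35.7%), and for CXCL8 in K29Q (34.2%). In WT the value of CXCL8, 16.4%, lay within the range of its counting error. TNFAIP3 had 13.75% in WT and 12.86% in K29Q, beside counting errors of 8.01% to 9.35%.

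CXCL2 and CXCL3 are near-identical neighbours of CXCL1 on chromosome 4, and reads could be divided among them. Their FPKM was lower still, 0.0858 to 0.350 for CXCL2 and 0.153 to 0.266 for CXCL3 over the 6 libraries, and neither separated the groups. Their promoters held the same 10 letters as that of CXCL1, 78 and 79 bases upstream. CXCR1 and CXCR2, the receptors of CXCL8 and CXCL1, had at most 0.0493 FPKM in any library. CXCR4, the receptor of another chemokine, CXCL12, was the 1 tested gene of 4 listed chemokine receptors. It had 1.22, 0.928 and 1.05 FPKM in WT 1 to 3 and 1.68, 1.82 and 1.71 in K29Q 1 to 3, with no overlap and a log2 fold change of 0.41 (limma, adjusted p = 0.17, unadjusted p = 0.00121).

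The rest of the pathway was read from 5 lists, chosen by role and with earlier results of these data known. They held 107 other genes, of which 68 were tested. Over all of them 0 passed the threshold (limma, 5 at an unadjusted p under 0.05, 2 higher and 3 lower in K29Q, which is 7.35% beside 12.5% for all genes). The groups did not overlap for 10 of the 68 (14.7%), 4 higher and 6 lower. Above 0 lay 32 and below 0 lay 36, with a median log2 fold change of −0.003.

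Among 19 tested receptors and adaptors 0 passed over all genes, and TNFRSF12A, the receptor of TWEAK, had the smallest p. Its FPKM was 69.1 ± 3.88 for WT and 59.2 ± 3.31 for K29Q libraries (SD, n = 3 each), with no overlap between the groups and a log2 fold change of −0.22 (limma, adjusted p = 0.365). BIRC2, which codes for cIAP1 and lies beside BIRC3, had 4.35 ± 0.882 and 5.195 ± 0.410 FPKM with overlapping groups, and IRAK2 and TRAF5 had log2 fold changes of −0.12 and 0.13.

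Among 14 tested kinases and ubiquitin ligases 8 lay above 0 and 6 below, and 0 had an unadjusted p under 0.05. The kinase TBK1, with 6.56 ± 1.13 FPKM in WT and 8.14 ± 0.895 in K29Q, had the smallest p (log2 fold change 0.28, limma, adjusted p = 0.408), and WT 1 overlapped the K29Q libraries. IKBKB, the gene of the IkB kinase IKK-beta, had 2.62 ± 0.0545 and 2.92 ± 0.212 FPKM with no overlap, at a log2 fold change of 0.11 (adjusted p = 0.524). IKBKE and MAP3K7 (TAK1) had log2 fold changes of −0.13 and 0.13.

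The list nearest in function to NFKBIA held the remaining subunit gene REL, other inhibitors and feedback genes. In this list 12 genes were tested, with a median log2 fold change of 0.09, 8 of them above 0, 4 below and 0 past the threshold. BCL3 codes for an atypical nuclear IkB protein that binds p50 and p52 dimers. It had 4.44, 4.69 and 5.29 FPKM in WT 1 to 3 and 6.61, 5.56 and 5.75 in K29Q 1 to 3, with no overlap between the groups. Its log2 fold change was 0.26 (SE 0.087, limma, adjusted p = 0.367). With each library corrected for GC content and length the value was 0.32, past the threshold (adjusted p = 0.0401).

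COMMD1, known to promote the removal of RelA from chromatin, had 5.01 ± 0.211 FPKM in WT and 4.28 ± 0.220 in K29Q with no overlap (log2 fold change −0.19, limma, adjusted p = 0.374). TAX1BP1, an A20 cofactor, and N4BP1 had log2 fold changes of 0.26 and 0.13. REL, below the filter, had 0.829, 0.526 and 0.671 FPKM in WT 1 to 3 and 1.02, 0.837 and 0.986 in K29Q 1 to 3. The REL groups did not overlap, though WT 1 and K29Q 2 were almost equal (ratio 1.40, exact permutation p = 0.1).

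Of 23 other chemokine and cytokine genes 19 had an FPKM below 1 in every library, and all 4 that were tested lay slightly below 0. LIF, a cytokine of the interleukin-6 family, had 23.2 ± 0.934 FPKM in WT and 21.1 ± 1.06 in K29Q (log2 fold change −0.13, limma, adjusted p = 0.445). CXCL16, CSF1 and EBI3 had log2 fold changes of −0.06, −0.13 and −0.08. TNF and IL6 were listed at 0 in most libraries. Among 19 tested survival, adhesion and enzyme targets 7 lay above 0 and 12 below, and 0 passed. The phosphatase gene PTPN1 had 25.3 ± 0.787 and 22.3 ± 0.305 FPKM (log2 fold change −0.17, adjusted p = 0.365), and MYC 1.26 ± 0.271 and 1.75 ± 0.118 (0.29, adjusted p = 0.379), both with no overlap. GADD45B and BCL2L1 had log2 fold changes of −0.13 and −0.12. KLF6, a zinc finger transcription factor gene, had a value of −0.59, larger in size than that of NFKBIA but with a p further from the threshold (limma, adjusted p = 0.52), and TRAF3, a receptor adaptor gene, had −0.34 (adjusted p = 0.616).

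**Figure D4:**
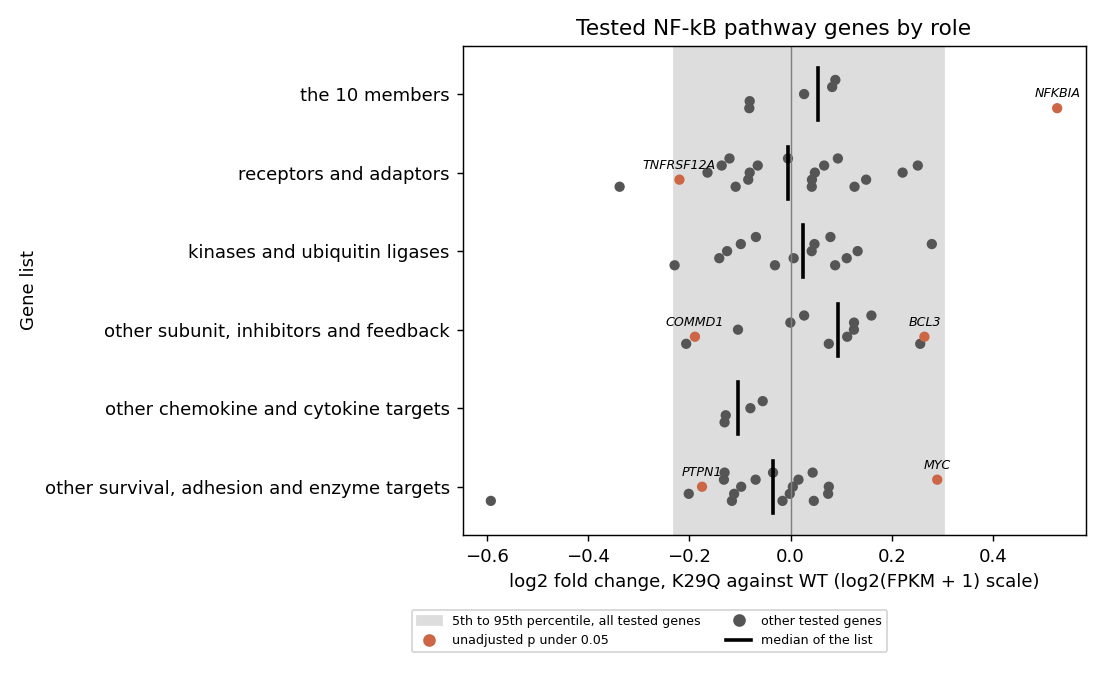
log2 fold change, K29Q against WT, of every tested gene in the list of members and in 5 lists of other pathway genes. Black lines are list medians, red points have an unadjusted p under 0.05 and are named, and the grey band spans the 5th to 95th percentile of all 13261 tested genes (−0.23 to 0.30). NFKBIA (0.53) lies farthest to the right, KLF6 (−0.59) and TRAF3 (−0.34) lie outside the band to the left, and the medians of the lists lie between −0.10 and 0.09.

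The profile of single members over the 6 libraries was compared with that of 5263 tested genes of at least moderate level (mean log2 value of at least 3). The Pearson correlation on the log2 scale, given as a description over 6 libraries that share depth and composition, was highest for UBE4B (0.98), WNT16 (0.98) and ADM (0.97) with NFKBIA. ADM, which codes for adrenomedullin, had 8.13, 7.37 and 8.30 FPKM in WT 1 to 3 and 10.7, 10.8 and 10.6 in K29Q 1 to 3, again with WT 2 lowest. CXCL1 was most like CSK (0.99), ERBB2 (0.98) and AC009065.4 (0.98), CXCL8 most like NIFK, NCLN and SET (0.98, 0.98 and 0.96), and TNFAIP3 most like EIF4A1, NSDHL and PGLS (0.97, 0.97 and 0.96). No gene was shared between these sets. With 6 libraries many genes reach such values, as 35 genes did above 0.9 for NFKBIA and 79 for CXCL1.

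PHF5A itself went from a WT mean of 33.1 ± 1.06 FPKM to a K29Q mean of 44.1 ± 2.38 (SD, n = 3 for both, log2 fold change 0.40, limma, adjusted p = 0.11), which sums the introduced and any native transcript. The first principal component (34.1% of the variance) placed WT 1 (−4.72) almost on K29Q 1 (−4.76) and apart from WT 2 (13.2) and WT 3 (18.0). All WT libraries lay above all K29Q libraries only by that small gap, so the groups were barely separated along it. Without WT 1 NFKBIA had a log2 fold change of 0.57 (limma, adjusted p = 0.0949). Among 12 epithelial markers EPCAM, CDH1, KRT8, KRT18, KRT19, CLDN7 and CDX2 were above 1 FPKM in every library, while the other 5, the differentiation markers KRT20, VIL1, CDX1, CDH17 and CEACAM5, were below 1 FPKM throughout. The summed epithelial level was 1265 to 1423 FPKM in WT and 1164 to 1220 in K29Q, without overlap. Most of the sum was KRT8, KRT18 and KRT19 (log2 fold changes −0.20, −0.09 and −0.21), and CDH1 had −0.14, whereas EPCAM (0.06), CLDN7 (0.03) and CDX2 (−0.01) lay near 0. None of these 7 passed (limma, adjusted p from 0.373 to 0.96). The groups did not overlap for 4 of the 7 (57.1%), all lower in K29Q, beside 17.8% of all tested genes. At an unadjusted p under 0.05 stood 2 of them (28.6%), beside 12.5% of all tested genes. The part of the summed epithelial level in the difference in NFKBIA was not tested. Of 14 leukocyte markers 13 were below 1 FPKM in every library, PTPRC had at most 0.00268 FPKM, and the summed level was 2.63 to 3.24 in WT and 2.73 to 3.31 in K29Q. Of 12 fibroblast and endothelial markers 11 were below 1 FPKM throughout, with DCN and LUM listed at 0, and the sums overlapped (4.88 to 5.85 and 4.97 to 6.36).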

How the data were processed

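Total RNA of 6 HCT116 libraries was sequenced on an Illumina instrument. Per the file headers, the values the authors deposited are FPKM per gene in every library. The submitters' processing notes name HISAT2 2.1.0, StringTie and the build GRCh38. Annotation, strand setting and StringTie version: not given in the sources used here. FPKM values are not counts, so no count test was run, and 0 columns belonged to other samples.

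The 13261 genes that reached an FPKM of 1 in 3 or more libraries were fitted as log2(FPKM + 1) with limma 3.58.1 in R 4.3.3, with an intensity trend and the group as the only term, over all genes. The log2 scale with a pseudocount of 1 understates changes of low genes. The procedure was tested on simulated data. Exact permutation tests used SciPy 1.17.1. Coordinates, transcript length and GC content came from GENCODE 29.

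The members and lists were chosen with earlier results of these data known. Named genes were all members, PHF5A, REL, CXCL2, CXCL3, up to 4 tested genes with the smallest p per pathway list, and the 3 genes most like each of NFKBIA, TNFAIP3, CXCL8 and CXCL1; CXCR1, CXCR2, CXCR4, NFKBIB, NFKBID, NFKBIZ, KLF6, TRAF3, TNF and IL6 were named after their values were seen. Alternatives were quantile normalization, both other filters, a pseudocount of 0.1, no intensity trend, the replicate block, a flow cell term, a GC and length correction, and leaving out each library.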

Additional observations from a re-analysis of the deposited data

How the results depend on the processing

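In all 14 alternatives 0 members passed the threshold, and NFKBIA stayed above 0. The count of genes past the threshold over all genes was 7, against 13 with quantile normalization, 2 with no filter, 3 with the replicate block, 4 with a flow cell term, 81 with GC and length correction, and 5 to 20 with 1 library left out (20 without WT 1, 12 without K29Q 1). The causes were not tested. GC and length correction moved the members at an unadjusted p under 0.05 from 1 to 2 (NFKBIA and RELB). The share over all genes moved with it, from 12.5% to 15.1%. Members whose groups do not overlap went from 1 to 3, while that share over all genes went from 17.8% to 22.8%. With a library left out the latter count was 1 to 3, beside 23.3% to 38.6% of all genes. Fewer libraries make overlap less likely. These counts do not set the members apart. Signs turned for RELA without WT 1 (−0.02), WT 2 (−0.003) or K29Q 2 (−0.0298), its range being −0.0298 to 0.10, for TNFAIP3 without WT 1 (−0.0022) or K29Q 3 (−0.0004), for CXCL1 without K29Q 1 (−0.0569), for CXCL3 without WT 2 (0.0181) or K29Q 1 (0.0334), for MAP3K7 with GC and length correction (−0.0115), and for EBI3 without K29Q 1 (0.0191, range −0.18 to 0.0191). BCL3 (0.0401) and PHF5A (0.0168) passed with that correction alone. Deviations from the group means correlated at 0.18 for the libraries numbered 2, and at −0.14 and −0.16 for those numbered 1 and 3. Differently numbered libraries reached 0.25 (WT 3 with K29Q 1) and 0.21 (WT 1 with K29Q 3). Deviations from a mean of 3 libraries cancel within a group, so signs mix under any pairing. Whether the numbers mark a pairing cannot be settled in this way. With the replicate block the adjusted p of NFKBIA was 0.393. TNFAIP3, BIRC3, CXCL8 and CXCL1 rest on few fragments and vary between libraries.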
